A study of Homo sapiens with 5 samples.

Results

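The 27 genes described here encode enzymes of cholesterol synthesis, the SREBP proteins and their partners that regulate it, and proteins that take up, move or store cholesterol. They were taken by symbol from a list of names. No measured value entered that rule, but the list was chosen with earlier results of these data known. All 27 were among the 46427 genes of the deposited table, and all 27 were among the 16304 genes that passed the filter on low counts. Total RNA was sequenced from U87 MG, an established human glioblastoma cell line. The 2 control libraries, numbered 2 and 3 in their titles, came from cells of the line with no treatment (genotype label CONTROL). The 3 other libraries, numbered 1 to 3, carried the genotype label Cancer stem cells and the treatment label CD133 positive, and are called sorted libraries below. The series asked about regulators that go with stemness and drug resistance in CD133-positive cells of this line. All 5 libraries came from the same line, and no CD133-negative or mock-sorted cells were among the samples.

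Cells build cholesterol from acetyl-CoA through the mevalonate pathway, which leads by way of isoprenoid diphosphates to squalene, then to lanosterol, and then by a series of modifications to cholesterol itself. When sterols in the endoplasmic reticulum are low, the transcription factors SREBP1 and SREBP2, made by SREBF1 and SREBF2, are escorted by SCAP to the Golgi, cut, and sent to the nucleus, where they switch on genes of synthesis and uptake. When sterols are high, INSIG1 holds SCAP back, and INSIG1 is itself an SREBP target. Cholesterol taken up in lipoproteins leaves the late endosome through NPC2 and NPC1, and surplus cholesterol is esterified by SOAT1 for storage in lipid droplets. Glioblastoma cells are known to depend on a supply of cholesterol, and SOAT1 is known for cholesterol ester storage in these tumours.

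The promoters of the regulators SREBF1, SREBF2 and INSIG1 and of SOAT1 are shown because the results turn on these genes. Each runs from 250 bases before to 50 bases after the RefSeq start on GRCh38.p14, 5′ to 3′ along the gene's own strand. Capitals mark the sterol regulatory element TCACNCCAC and the CCAAT box on either strand. The windows lie at chr17:17836937-17837236 (minus strand, SREBF1), chr22:41832855-41833154 (plus strand, SREBF2), chr7:155297628-155297927 (plus strand, INSIG1) and chr1:179293547-179293846 (plus strand, SOAT1).
SREBF1: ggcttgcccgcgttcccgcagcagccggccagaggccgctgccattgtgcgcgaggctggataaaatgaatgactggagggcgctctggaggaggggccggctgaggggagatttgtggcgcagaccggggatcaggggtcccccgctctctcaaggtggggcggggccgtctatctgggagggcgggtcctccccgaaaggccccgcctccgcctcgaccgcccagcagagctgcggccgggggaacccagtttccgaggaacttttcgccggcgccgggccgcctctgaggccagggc
SREBF2: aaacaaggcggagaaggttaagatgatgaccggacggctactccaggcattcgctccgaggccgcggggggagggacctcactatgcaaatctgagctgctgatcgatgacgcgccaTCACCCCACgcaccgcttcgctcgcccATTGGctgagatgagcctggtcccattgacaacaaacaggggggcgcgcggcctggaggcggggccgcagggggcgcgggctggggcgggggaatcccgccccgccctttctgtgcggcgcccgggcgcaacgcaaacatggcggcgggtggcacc
INSIG1: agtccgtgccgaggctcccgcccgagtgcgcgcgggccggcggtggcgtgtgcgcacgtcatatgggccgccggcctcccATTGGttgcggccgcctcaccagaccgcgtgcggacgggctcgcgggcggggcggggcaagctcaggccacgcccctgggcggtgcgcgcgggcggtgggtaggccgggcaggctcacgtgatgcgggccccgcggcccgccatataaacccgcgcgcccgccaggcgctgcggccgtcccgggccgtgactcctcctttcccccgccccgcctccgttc
SOAT1: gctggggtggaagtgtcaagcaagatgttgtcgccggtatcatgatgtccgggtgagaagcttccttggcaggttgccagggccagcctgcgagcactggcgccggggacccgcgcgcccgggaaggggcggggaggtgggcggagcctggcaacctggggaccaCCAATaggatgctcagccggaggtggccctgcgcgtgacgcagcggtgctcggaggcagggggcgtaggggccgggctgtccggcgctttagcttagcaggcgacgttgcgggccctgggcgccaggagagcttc

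Such a 300-base window was at hand for 24 of the 27 genes, and ACAT2, FDFT1 and SQLE had none. The sterol element TCACNCCAC, the letters of a classical SREBP binding site, was found on either strand in 1 of 24 genes, SREBF2, where it starts 133 bases upstream of the start. Of all genes with a window, 1.39% held it, and of protein-coding genes 1.51%. The CCAAT box, bound by NF-Y, which is known to act beside SREBP, was found as CCAAT or its reverse complement in 19 of 24 genes (79.2%), against 39.7% of all genes and 42.1% of protein-coding genes. The GC box GGGCGG, a site for SP1, was found on either strand in 23 of 24 (95.8%), against 48.3% and 64.3%. SREBF1 was among the genes with no CCAAT box in this window. These are matches of letters in one window per start site, and say nothing of binding.

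Depth was 17716823 to 29841238 counts per library. Sorted library 3 was unlike the rest: 7SL RNA took 24.4% of it, against 5.71 to 12.01% of the other 4, and protein-coding genes took 60.9% against 72.6 to 82.5%. Its log2 levels correlated across genes with those of sorted libraries 1 and 2 at r = 0.979 and 0.976, and those 2 with each other at r = 0.993. Each result is therefore given with and without sorted library 3, and the part of its RNA make-up in the results was not tested. PROM1, which encodes CD133, was at 0.356 and 0 CPM in control libraries 2 and 3 and at 0.39, 0 and 0 CPM in sorted libraries 1 to 3, so the sort was not visible in the transcript of its own marker. The stem and glial genes NES, VIM and CD44 were expressed in all 5 libraries, and NES rose (4.54 and 4.14 CPM in controls, 12.7 to 15.2 CPM in sorted libraries, edgeR adjusted p = 0.0253, and 0.00108 without sorted library 3). GFAP and S100B, which mark astrocytes, were at most at 0.908 CPM and AQP4 was at 0. SOX2 was at 0 CPM in all libraries but sorted library 2, where it was at 0.44 CPM, and OLIG2 was at 0.383 to 2.04 CPM. Of 12 glioma and neural markers 8 were tested. With 5 libraries 1 rose, NES (2.20% of all tested genes rose), and without sorted library 3, 4 rose (15.4% of all). Of 11 blood cell markers 4 were at 0 in every library, PTPRC was at 0 in all but sorted library 3, where it was at 0.227 CPM, and the list summed to 6.92 and 3.70 CPM in controls and to 1.66 to 9.27 CPM in sorted libraries. The 8 endothelial markers summed to 15.9 and 15.5 CPM in controls and to 8.40 to 9.97 CPM in sorted libraries. Of the 6 tested with 5 libraries, 1 fell, TEK (2.40% of all tested genes fell). It went from 4.57 and 4.19 CPM in controls to at most 0.557 CPM in sorted libraries (edgeR adjusted p = 0.0329). Without sorted library 3, 2 of 5 fell, TEK and KDR (16.8% of all). Of 3 blood cell markers tested, none passed with 5 libraries, and ITGAM rose without sorted library 3 (15.4% of all). The part of these markers in the results was not tested.

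In sorted cells the cholesterol ester enzyme SOAT1 was lower and the regulator SREBF1 was higher. By edgeR these were the only 2 of the 27 genes past the threshold with all 5 libraries. Without sorted library 3, 15 genes passed, 12 lower and 3 higher. The 12 lower genes were the synthesis enzymes ACAT2, IDI1, FDPS, CYP51A1, MSMO1, HSD17B7 and SC5D, the regulator SREBF2, and STARD4, NPC1, NPC2 and SOAT1, which move or store cholesterol. The 3 higher genes were SREBF1, SCAP and the synthesis enzyme SQLE. In bulk RNA, fewer cells of a type and less RNA per cell cannot be told apart, and neither can the sort itself and the state of the sorted cells.

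The test was edgeR's quasi-likelihood test with p-values adjusted over all genes tested (Benjamini-Hochberg, threshold 0.05), and levels are TMM-normalised counts scaled to library size (CPM). With 5 libraries, 1 of 27 genes was called higher (3.70%), where 2.20% of all tested genes were, and 1 of 27 lower (3.70%), where 2.40% were. These shares are near the background and are no result about the list. Without sorted library 3, 11.1% of the 27 were called higher against 15.4% of all genes, and 44.4% were called lower against 16.8%. The median log2 fold change of the 27 was -0.34 against 0.00 over all genes, and without sorted library 3 it was -0.56 against -0.01. At an unadjusted p under 0.05, 1 gene was higher and 7 were lower with 5 libraries, where 12.2% and 13.6% of all tested genes were. With control library 2, control library 3 or sorted library 1 left out, 0 of all tested genes passed (edgeR), and 19 passed without sorted library 2, so a call lost in those fits says nothing of the gene, and the fold changes are given instead. DESeq2 called 1 higher (3.70%, against 7.33% of all genes) and 4 lower (14.8%, against 7.16%), the 4 being IDI1, HSD17B7, NPC2 and SOAT1. The standard error of a log2 fold change had a median over the 27 of 0.40 with 5 libraries and 0.15 without sorted library 3.

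Ranked by level alone, every sorted library lay above both controls for 2 genes, SREBF1 and SQLE (7.41%, against 22.7% of all tested genes), and below both for 10 (37.0%, against 27.7%). Those 10 were PMVK, IDI1, FDPS, NSDHL, HSD17B7, SC5D, SREBF2, NPC1, NPC2 and SOAT1. With sorted library 3 set aside the counts were 3 above (11.1%, against 33.2%) and 16 below (59.3%, against 35.4%).

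**Figure D1:**
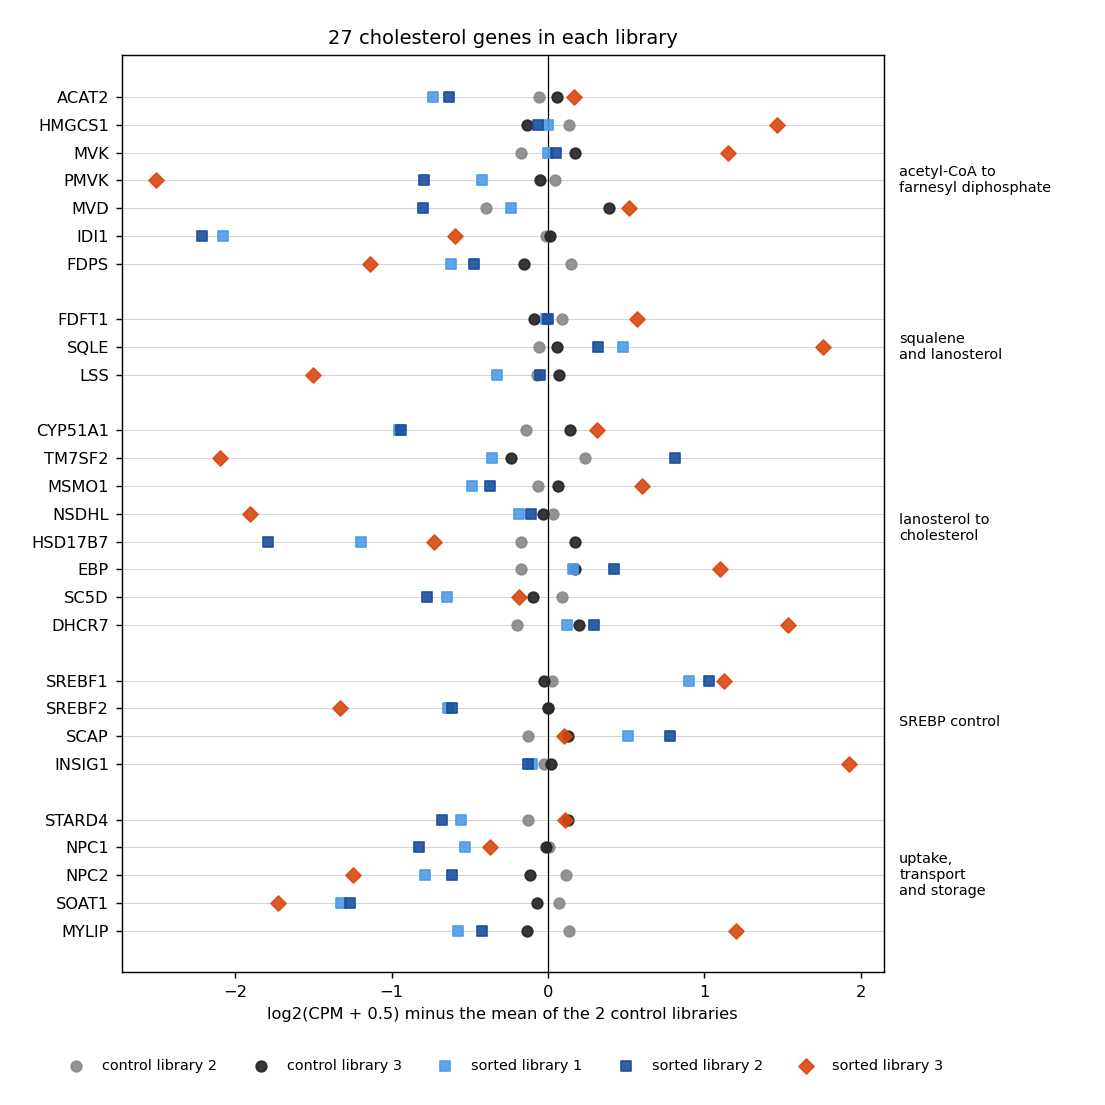
Level of each of the 27 genes in each of the 5 libraries, as log2(CPM + 0.5) minus the mean of the 2 controls (x axis), with genes in rows grouped by role; circles are controls, squares sorted libraries 1 and 2, diamonds sorted library 3. Sorted libraries 1 and 2 sit close together for most genes, below both controls for 16 of them, while sorted library 3 is often far from them, on the right for INSIG1, SQLE and HMGCS1 and on the left for PMVK, TM7SF2 and NSDHL.

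**Figure D2:**
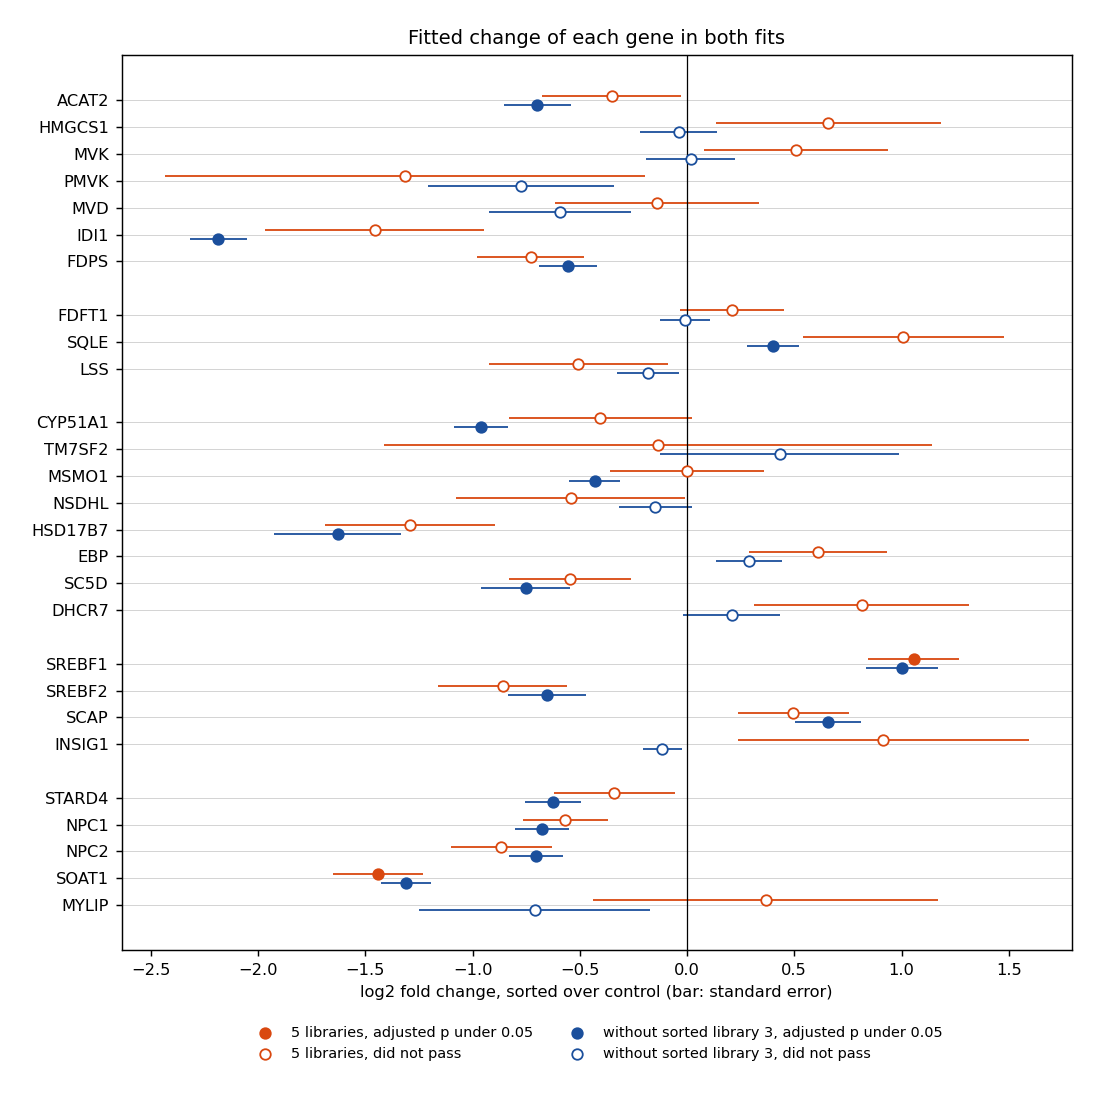
Fitted log2 fold change, sorted over control (x axis; bars are standard errors), of each gene with 5 libraries (orange) and without sorted library 3 (blue), with filled circles where the edgeR adjusted p was under 0.05. SOAT1 and SREBF1 are filled in both fits, and 13 more genes are filled only where sorted library 3 is left out.

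Of the 7 enzymes from acetyl-CoA to farnesyl diphosphate, none passed with 5 libraries (edgeR). At an unadjusted p under 0.05, 2 were lower (13.6% of all tested genes were), and DESeq2 called 1 lower (7.16% of all). Without sorted library 3, 3 fell, where 16.8% of all tested genes did. IDI1 (gene 3422, chromosome 10, 1039152 to 1056704) isomerises isopentenyl diphosphate to dimethylallyl diphosphate, which starts isoprenoid chain building. It stood at 60.5 and 61.8 CPM in control libraries 2 and 3 and at 14.1, 12.8 and 40.3 CPM in sorted libraries 1, 2 and 3. Every sorted library was lower than both controls, with sorted library 3 between the controls and the other 2. The log2 fold change was -1.46 ± 0.51 (SE, n = 2 and 3, edgeR adjusted p = 0.143), and without sorted library 3 IDI1 fell 4.55-fold (-2.19 ± 0.13, edgeR adjusted p = 5.29e-05). That was the largest fall of the 27 in that comparison. With 5 libraries IDI1 was called lower by DESeq2 (DESeq2 adjusted p = 0.0362) and by limma-voom (limma adjusted p = 0.0498). It was also called lower on log2(TPM + 1) (limma adjusted p = 0.019) but not on log2(TPM + 0.1) (limma adjusted p = 0.0563).

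FDPS (gene 2224, chromosome 1, 155308866 to 155320665) makes farnesyl diphosphate, where the branches to sterols, prenylated proteins and other isoprenoids part. It stood at 77.1 and 62.5 CPM in controls and at 45.1, 49.8 and 31.2 CPM in sorted libraries 1 to 3, with no overlap. Its log2 fold change was -0.73 ± 0.25 (edgeR adjusted p = 0.137) and -0.56 ± 0.14 without sorted library 3, where it passed (edgeR adjusted p = 0.0171). ACAT2 (gene 39, chromosome 6, 159762045 to 159779112), which joins acetyl-CoA units, stood at 23.2 and 25.1 CPM in controls, at 14.3 and 15.4 CPM in sorted libraries 1 and 2, and at 27.2 CPM in sorted library 3. On this scale sorted library 3 lay above both controls and the other 2 below them. On TPM all 3 sorted libraries were below both controls, at 22.3 and 26.6 TPM in controls and 9.80, 10.1 and 8.37 TPM in sorted libraries 1 to 3. ACAT2 fell without sorted library 3 (log2 fold change -0.70 ± 0.16, edgeR adjusted p = 0.0115), and with it the change was -0.35 ± 0.33 (edgeR adjusted p = 0.55).

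The other 4 enzymes of the early pathway passed in neither comparison. HMGCS1, which makes HMG-CoA, was chosen for its values after they were seen, and stood at 16.98 and 14.02 CPM in controls, at 15.4 and 14.7 CPM in sorted libraries 1 and 2, and at 43.6 CPM in sorted library 3. Sorted libraries 1 and 2 lay between the controls, and the log2 fold change was -0.04 ± 0.18 without sorted library 3 and 0.66 ± 0.52 with it (edgeR adjusted p = 0.894 and 0.483). The mevalonate kinase MVK ranged from 9.02 to 11.6 CPM in controls and from 10.3 to 23.4 CPM in sorted libraries, and the decarboxylase MVD from 6.71 to 11.9 and from 4.95 to 13.1 CPM. PMVK, the phosphomevalonate kinase, was a low gene at 2.43 and 2.25 CPM in controls and 1.62 and 1.14 CPM in sorted libraries 1 and 2. It had 0 counts in sorted library 3, which allows up to 3 counts or 0.227 CPM, so its level there was at least 6.06-fold lower than the mean of sorted libraries 1 and 2.

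The 3 enzymes that make squalene and lanosterol did not share a direction. SQLE, squalene epoxidase, is one of the rate-controlling enzymes of sterol synthesis. It stood at 42.5 and 46.1 CPM in control libraries 2 and 3 and at 61.9, 55.4 and 151 CPM in sorted libraries 1, 2 and 3. Every sorted library was above both controls, and sorted library 3 was 2.57-fold above the mean of the other 2. With 5 libraries the log2 fold change was 1.01 ± 0.47 (edgeR adjusted p = 0.238), and without sorted library 3 SQLE rose by 0.40 ± 0.12 (edgeR adjusted p = 0.0373). That call was lost with library size alone as the scale (0.16, edgeR adjusted p = 0.4). On TPM the groups overlapped, at 21.0 and 25.6 TPM in controls and 21.8, 18.8 and 24.1 TPM in sorted libraries 1 to 3, and the log2 difference with 5 libraries was -0.11, where the median of all genes was -0.74. FDFT1, which makes squalene, stood at 64.3 and 56.8 CPM in controls and at 59.9 to 89.8 CPM in sorted libraries. LSS, which closes squalene epoxide into lanosterol, stood at 35.2 and 38.8 CPM in controls, at 29.4 and 35.7 CPM in sorted libraries 1 and 2, and at 12.7 CPM in sorted library 3. Neither FDFT1 nor LSS passed in either comparison (edgeR adjusted p 0.383 to 0.963).

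Of the 8 enzymes that turn lanosterol into cholesterol, none passed with 5 libraries (edgeR). At an unadjusted p under 0.05, 1 was lower, HSD17B7 (13.6% of all tested genes were), and DESeq2 called that 1 (7.16% of all). Without sorted library 3, 4 fell, where 16.8% of all tested genes did. HSD17B7 (gene 51478, chromosome 1, 162790702 to 162812823), a ketosteroid reductase of sterol demethylation, stood at 8.70 and 11.2 CPM in controls and at 4.01, 2.49 and 5.75 CPM in sorted libraries 1 to 3. All sorted libraries were below both controls. Its fitted change was a log2 fold change of -1.29 ± 0.40 (edgeR adjusted p = 0.112), and without sorted library 3 HSD17B7 fell 3.09-fold (-1.63 ± 0.30, edgeR adjusted p = 0.00484).

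SC5D, the sterol desaturase of the last steps (gene 6309, chromosome 11, 121292771 to 121313410), stood at 11.8 and 10.3 CPM in controls and at 6.85, 6.23 and 9.61 CPM in sorted libraries 1 to 3. All 3 lay below both controls, sorted library 3 just below. SC5D had a log2 fold change of -0.55 ± 0.28 (edgeR adjusted p = 0.285) and -0.75 ± 0.21 without sorted library 3, where it fell (edgeR adjusted p = 0.0261) but was not called by DESeq2 (DESeq2 adjusted p = 0.069). CYP51A1, the lanosterol demethylase, was described after its values were seen and stood at 101 and 123 CPM in controls, at 57.2 and 57.7 CPM in sorted libraries 1 and 2, and at 139 CPM in sorted library 3. It fell 1.95-fold without sorted library 3 (log2 fold change -0.96 ± 0.13, edgeR adjusted p = 0.0012), and with it the change was -0.41 ± 0.43 (edgeR adjusted p = 0.606). On TPM all 3 sorted libraries were below both controls, at 47.0 and 63.3 TPM in controls and 19.1, 18.3 and 20.6 TPM in sorted libraries. The difference with 5 libraries on log2(TPM + 1) was -1.45 (limma adjusted p = 0.0447), where the median of all genes was -0.74. On log2(TPM + 0.1) CYP51A1 did not pass (limma adjusted p = 0.088). MSMO1, the methyl sterol oxidase that acts on the methyl groups of later intermediates, had the same order on CPM. It stood at 59.9 and 65.5 CPM in controls, 44.6 and 48.3 CPM in sorted libraries 1 and 2, and 95.1 CPM in sorted library 3. On TPM its 3 sorted libraries were below both controls, at 39.8 and 47.9 TPM in controls and 21.4, 21.8 and 20.5 TPM in sorted libraries. MSMO1 fell by 0.43 ± 0.12 on the log2 scale of the fit without sorted library 3 (edgeR adjusted p = 0.0264).

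The other 4 genes of these steps passed in neither comparison. EBP, the sterol isomerase, stood at 46.2 and 58.8 CPM in controls and at 58.2 to 113 CPM in sorted libraries. DHCR7, the last reductase of one branch, stood at 7.06 and 9.42 CPM in controls, at 8.92 and 10.1 CPM in sorted libraries 1 and 2, and at 24.7 CPM in sorted library 3. NSDHL, a dehydrogenase that works with MSMO1 and HSD17B7, went the other way in sorted library 3, at 3.63 CPM against 13.1 and 13.9 CPM in sorted libraries 1 and 2 and 15.3 and 14.6 CPM in controls. The sterol reductase TM7SF2 was low throughout, at 2.02 and 1.31 CPM in controls and 1.17 and 3.26 CPM in sorted libraries 1 and 2. It had 0 counts in sorted library 3, at least 9.76-fold lower than the mean of the other 2 sorted libraries.

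The 4 regulators of the SREBP pathway did not move together. SREBF1 (gene 6720, chromosome 17, 17811334 to 17836986), which makes SREBP1 and is known chiefly for fatty acid synthesis, stood at 10.39 and 10.02 CPM in control libraries 2 and 3 and at 19.5, 21.4 and 22.8 CPM in sorted libraries 1, 2 and 3. On CPM the groups did not overlap and each was narrow, at 10.2 ± 0.262 CPM (SD, n = 2) and 21.2 ± 1.67 CPM (SD, n = 3). On TPM they overlapped, at 3.12 and 3.52 TPM in controls and 4.19, 4.515 and 2.14 TPM in sorted libraries 1 to 3. Sorted library 3 was then the lowest of the 5. SREBF1 rose 2.08-fold (log2 fold change 1.06 ± 0.21, edgeR adjusted p = 0.0485). Without sorted library 3 it rose 2.00-fold (1.00 ± 0.17, edgeR adjusted p = 0.00355). The call lies at the threshold. It was lost with library size alone as the scale (edgeR adjusted p = 0.202), where 0.693% of all tested genes were called higher. With no filter on low counts it was lost too (edgeR adjusted p = 0.0525). With any 1 of control libraries 2 and 3 and sorted libraries 1 and 2 left out, the log2 fold change of SREBF1 ran from 1.018 to 1.105 (edgeR adjusted p 0.106 to 0.438, in fits that called at most 19 genes of the whole table). On log2(TPM + 1) the difference of SREBF1 was 0.05 (limma adjusted p = 0.917), where the median of all genes was -0.74, and on log2(TPM + 0.1) it was also 0.05 (limma adjusted p = 0.939).

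SREBF2 (gene 6721, chromosome 22, 41833105 to 41907305) makes SREBP2, the SREBP known chiefly for cholesterol synthesis and uptake. It stood at 14.1 CPM in both controls and at 8.86, 9.05 and 5.29 CPM in sorted libraries 1 to 3. Every sorted library was below both controls, the third furthest. SREBF2 had a log2 fold change of -0.86 ± 0.30 (edgeR adjusted p = 0.143), and without sorted library 3 it fell 1.57-fold (-0.65 ± 0.18, edgeR adjusted p = 0.0274). SREBF1 and SREBF2 thus passed in opposite directions without sorted library 3, and their difference was not tested. DESeq2 without sorted library 3 called SREBF1 (DESeq2 adjusted p = 0.000574) but not SREBF2 (-0.66, DESeq2 adjusted p = 0.0694).

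SCAP, the escort of both SREBPs (gene 22937, chromosome 3, 47413681 to 47477127), stood at 25.7 and 30.8 CPM in controls, at 40.3 and 48.8 CPM in sorted libraries 1 and 2, and at 30.2 CPM in sorted library 3, which lay between the controls. It rose without sorted library 3 (log2 fold change 0.66 ± 0.15, edgeR adjusted p = 0.0139), and with 5 libraries the change was 0.49 ± 0.26 (edgeR adjusted p = 0.288). The call without sorted library 3 was lost with library size alone as the scale (0.41, edgeR adjusted p = 0.087). On log2(TPM + 1) with 5 libraries the difference was -0.41 (limma adjusted p = 0.544), where the median of all genes was -0.74. INSIG1 (gene 3638, chromosome 7, 155297878 to 155310235), the sterol-dependent brake on SCAP, was chosen for its values after they were seen. It stood at 159 and 165 CPM in controls and at 151 and 148 CPM in sorted libraries 1 and 2, and at 617 CPM in sorted library 3. The first 4 libraries lay within a narrow band and sorted library 3 was 4.13-fold above the mean of the other 2 sorted libraries. The log2 fold change was 0.91 ± 0.68 with sorted library 3 (edgeR adjusted p = 0.452) and -0.12 ± 0.09 without it (edgeR adjusted p = 0.372). With library size alone as the scale and without sorted library 3, INSIG1 was called lower (-0.36, edgeR adjusted p = 0.0262), where the median of all genes was -0.26.

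Among the 5 genes of uptake, transport and storage, SOAT1 fell with all 5 libraries and 4 of 5 fell without sorted library 3. Of all tested genes 2.40% and 16.8% fell in these 2 fits. SOAT1 (gene 6646, chromosome 1, 179293797 to 179358680) esterifies cholesterol in the endoplasmic reticulum. It stood at 84.9 and 77.1 CPM in control libraries 2 and 3 and at 32.0, 33.3 and 24.1 CPM in sorted libraries 1, 2 and 3. The highest sorted library was far below the lower control, at group means of 81.0 ± 5.53 CPM (SD, n = 2) and 29.8 ± 5.02 CPM (SD, n = 3). SOAT1 fell 2.72-fold (log2 fold change -1.44 ± 0.21, edgeR adjusted p = 0.0256), and 2.48-fold without sorted library 3 (-1.31 ± 0.12, edgeR adjusted p = 0.000262). Its direction held under every alternative run. The call was lost with library size alone as the scale (edgeR adjusted p = 0.0535) and on log2(TPM + 0.1) (limma adjusted p = 0.0904). Those settings called 1.93% and 0.467% of all tested genes lower. With any 1 of control libraries 2 and 3 and sorted libraries 1 and 2 left out, the log2 fold change of SOAT1 ran from -1.52 to -1.38 (edgeR adjusted p 0.0785 to 0.301, in fits that called at most 19 genes of the whole table).

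NPC2 (gene 10577, chromosome 14, 74479935 to 74493512), the soluble lysosomal protein that hands cholesterol to NPC1, stood at 102 and 86.5 CPM in controls and at 54.2, 61.2 and 39.3 CPM in sorted libraries 1 to 3. The groups did not overlap. For NPC2 the log2 fold change was -0.87 ± 0.24 (edgeR adjusted p = 0.0886), and without sorted library 3 NPC2 fell by 0.70 ± 0.13 (edgeR adjusted p = 0.00445). NPC1 (gene 4864, chromosome 18, 23506184 to 23586506), the membrane protein that exports cholesterol from the late endosome, stood at 96.3 and 95.1 CPM in controls and at 66.0, 53.9 and 74.0 CPM in sorted libraries 1 to 3. All 3 were below both controls. The log2 fold change was -0.57 ± 0.20 (edgeR adjusted p = 0.138), and without sorted library 3 NPC1 fell by 0.68 ± 0.13 (edgeR adjusted p = 0.00524).

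STARD4, a cytosolic sterol carrier and SREBP target (gene 134429, chromosome 5, 111496033 to 111512535), stood at 62.2 and 74.6 CPM in controls, at 46.3 and 42.5 CPM in sorted libraries 1 and 2, and at 73.5 CPM in sorted library 3, between the controls. It fell by 0.63 ± 0.13 on the log2 scale without sorted library 3 (edgeR adjusted p = 0.00925), and with it the change was -0.34 ± 0.28 (edgeR adjusted p = 0.504). MYLIP, a ubiquitin ligase that marks lipoprotein receptors for degradation, was the lowest of the 27 in controls per length (TPM). It stood at 1.69 and 1.31 CPM in controls, at 0.836 and 0.989 CPM in sorted libraries 1 and 2, and at 4.08 CPM in sorted library 3, and did not pass (edgeR adjusted p = 0.826 and 0.356).

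**Figure D3:**
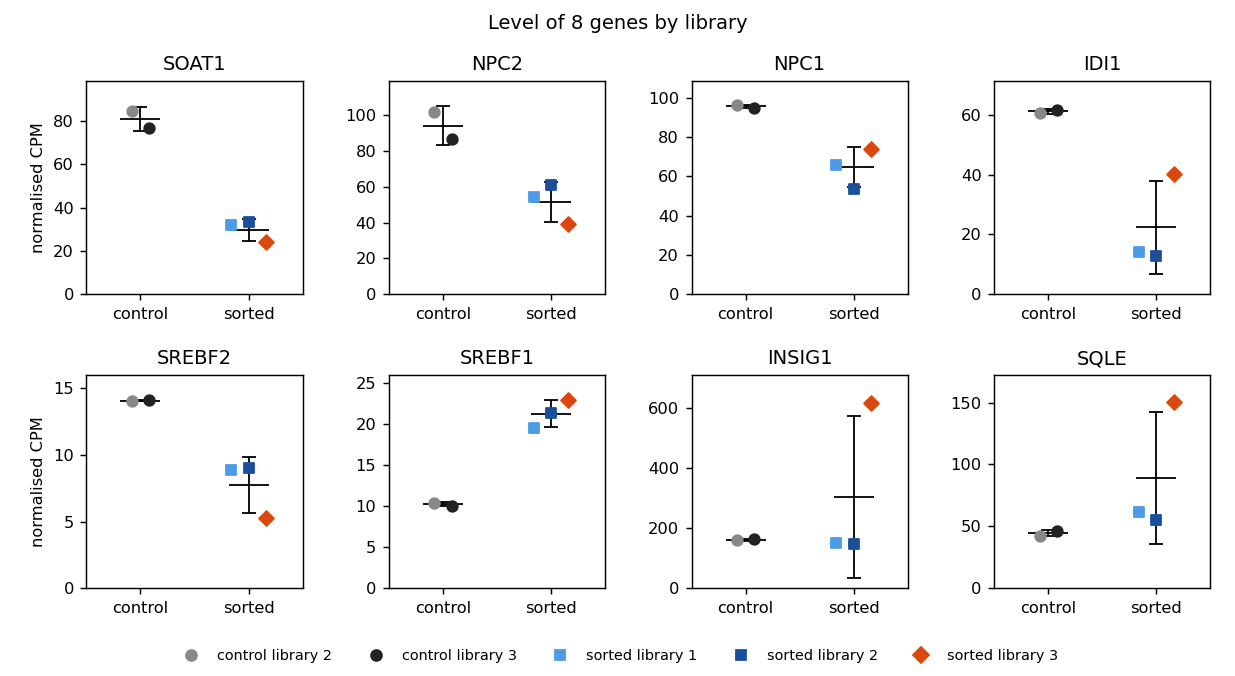
Normalised CPM (y axis, from 0) of SOAT1, NPC2, NPC1, IDI1, SREBF2, SREBF1, INSIG1 and SQLE in each library, with the group mean as a line and the SD as a bar (n = 2 control, n = 3 sorted). SOAT1, NPC2, NPC1, IDI1 and SREBF2 are lower in all sorted libraries, SREBF1 is higher in all of them, and the sorted means of INSIG1 and SQLE are pulled up by sorted library 3.

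Sorted library 3 differed from sorted libraries 1 and 2 in both directions within the list. On log2(CPM + 0.5), 10 of the 27 genes were past 2-fold higher in it than in their mean (37.0%, against 8.48% of all tested genes). In order of size these were INSIG1, MYLIP, IDI1, HMGCS1, SQLE, DHCR7, CYP51A1, MVK, MSMO1 and MVD. The 4 past 2-fold lower (14.8%, against 13.4%) were TM7SF2, PMVK, NSDHL and LSS. Between sorted libraries 1 and 2, 1 gene was past 2-fold, TM7SF2 (3.70%, against 5.97%). The median difference of the 27 between sorted library 3 and the other 2 was 0.72 on the log2 scale, where the median of all tested genes was -0.06. With 1 library on one side these differences have no replicate check.

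**Figure D4:**
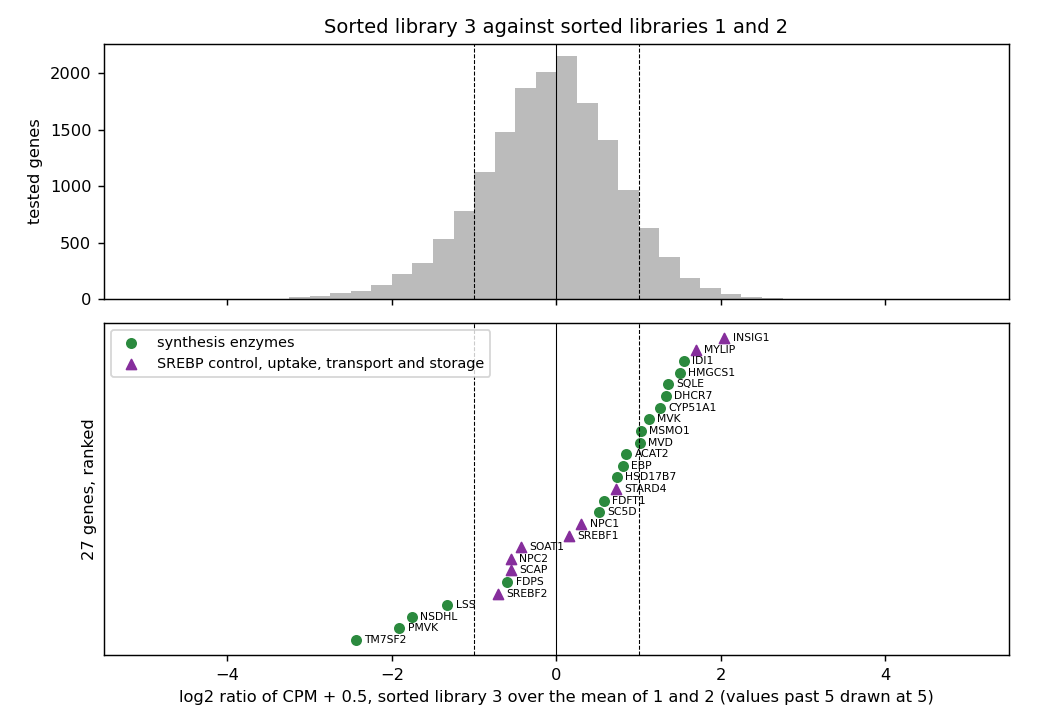
Log2 ratio of CPM + 0.5 in sorted library 3 over the mean of sorted libraries 1 and 2 (x axis), for all 16304 tested genes (upper panel, number of genes per bin) and for the 27 genes in rank order (lower panel); dashed lines mark 2-fold. INSIG1 is furthest right. Synthesis enzymes are 18 of the 27 genes, 8 of the 10 past 2-fold higher and all 4 past 2-fold lower.

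The direction of part of that difference depended on the scale. How the deposited TPM was computed is not given in the sources used here. On that TPM, 8 of the 10 genes were still above both other sorted libraries, MSMO1 was below both and MVD was between them. The sizes were smaller. INSIG1 stood at 78.9 and 88.9 TPM in controls, at 53.8 and 50.3 TPM in sorted libraries 1 and 2 and at 98.4 TPM in sorted library 3, which was 1.89-fold their mean, and IDI1 at 6.27 TPM was 1.38-fold their mean of 4.55. The 4 low genes were below both other sorted libraries on TPM as well. Summed over the 18 synthesis enzymes, CPM was 590 and 625 in controls, 454 and 473 in sorted libraries 1 and 2, and 822 in sorted library 3, but TPM was 412 and 477, 231 and 238, and 180. The synthesis total of sorted library 3 was thus the highest of the 5 by normalised CPM and the lowest by TPM.

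The make-up of the 27-gene total needs no scaling between libraries. The 27 genes summed to 38611 and 43036 counts in control libraries 2 and 3 and to 15658, 24345 and 22643 counts in sorted libraries 1 to 3. INSIG1 was the largest part in every library, with 13.91% and 13.96% in controls, 17.3% and 16.6% in sorted libraries 1 and 2 and 36.1% in sorted library 3. The 95% Wilson interval of the last share was 35.4 to 36.7%, and such intervals cover counting error only. SOAT1 was 7.41% and 6.54% of the total in controls and 3.67%, 3.74% and 1.40% in sorted libraries 1 to 3. IDI1 was 5.28% and 5.24% in controls and 1.62%, 1.44% and 2.35% in sorted libraries. Both genes thus lost share in every sorted library. SQLE gained share in each, from 3.71% and 3.91% in controls to 7.09%, 6.21% and 8.81%.

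**Figure D5:**
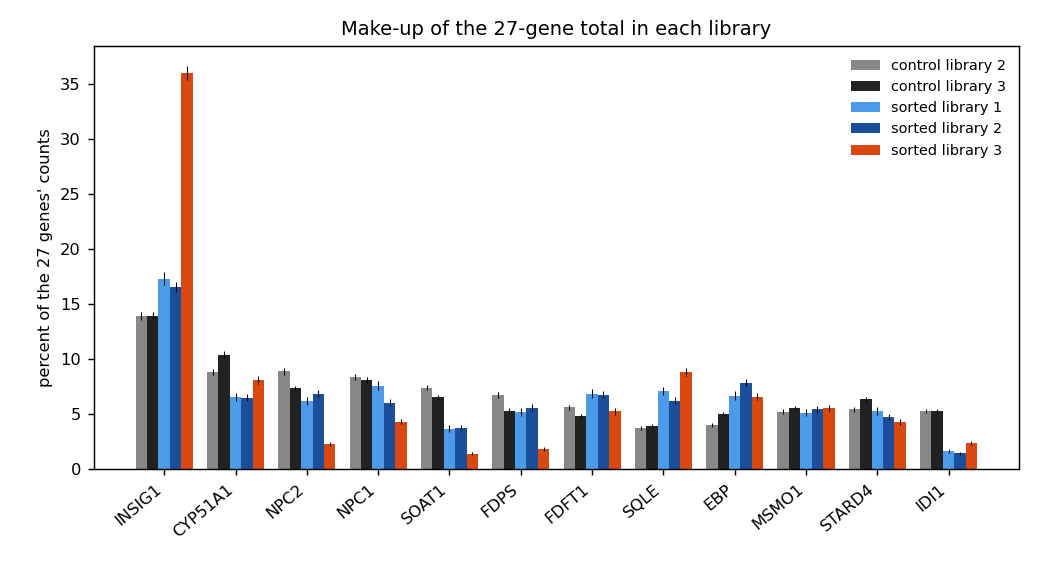
Percent of the 27-gene count total (y axis, from 0) taken by each of 12 genes in each library; bars are libraries and error bars 95% Wilson intervals, which cover counting error only. IDI1 and SOAT1 are a smaller part in every sorted library than in the controls, and INSIG1 reaches 36.1% in sorted library 3.

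Levels of different genes were compared per length, in TPM. In controls NPC2 was highest at 172 ± 8.37 TPM (SD, n = 2), followed by INSIG1 at 83.9 ± 7.02 TPM, FDPS at 83.2 ± 6.83 TPM and EBP at 72.2 TPM. INSIG1 and FDPS did not differ beyond their spread. CYP51A1 followed at 55.2 TPM. IDI1 stood at 30.9 TPM, SQLE at 23.3 TPM, SOAT1 at 18.5 TPM, SREBF2 at 4.25 TPM and SREBF1 at 3.32 TPM. The lowest were SC5D at 2.46 TPM, TM7SF2 at 1.54 TPM and MYLIP at 0.779 TPM.

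The 5 lists of genes from neighbouring pathways, none of them among the 27, were set beside these results, each with its count over the genes tested. The counts stand against the same shares of all tested genes, which were 2.20% higher and 2.40% lower with 5 libraries, 12.2% and 13.6% at an unadjusted p, 7.33% and 7.16% by DESeq2, and 15.4% and 16.8% without sorted library 3. Of 19 other genes of sterol synthesis and its control, none passed with 5 libraries (edgeR; at an unadjusted p under 0.05, 1 was higher and 6 lower, and DESeq2 called 1 and 3), and 2 rose and 6 fell without sorted library 3. LBR, a nuclear membrane protein that is also a sterol reductase, stood at 57.2 and 52.7 CPM in controls and 28.8, 27.7 and 16.3 CPM in sorted libraries 1 to 3 (log2 fold change -1.18 ± 0.28, edgeR adjusted p = 0.0688). CYB5A, the cytochrome b5 that feeds electrons to sterol oxidases and desaturases, stood at 38.5 and 32.0 CPM and at 19.3, 19.1 and 19.5 CPM (-0.87 ± 0.19, edgeR adjusted p = 0.0583). Both fell without sorted library 3, and for both every sorted library was below both controls.

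The branch from farnesyl diphosphate to prenyl groups, ubiquinone and dolichol had 16 tested genes, of which 1 fell with 5 libraries and 6 fell without sorted library 3. The 1 was PDSS1, which builds the ubiquinone side chain, at 13.3 and 14.1 CPM in controls and 3.29, 2.71 and 1.44 CPM in sorted libraries 1 to 3 (log2 fold change -2.45 ± 0.37, edgeR adjusted p = 0.0297). With any other library than sorted library 3 left out, its log2 fold change ran from -2.70 to -2.42 (edgeR adjusted p 0.0798 to 0.28, in fits that called at most 19 genes of the whole table). The PDSS1 call was lost with library size alone as the scale (edgeR adjusted p = 0.0525), where 1.93% of all tested genes were called lower. PGGT1B, a subunit of a protein prenyltransferase, stood at 42.8 and 39.0 CPM and at 21.0, 9.38 and 12.6 CPM (-1.52 ± 0.35, edgeR adjusted p = 0.0655). Neither gene's groups overlapped.

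Of 27 genes of lipoprotein receptors and cholesterol transport, 2 rose and 1 fell with 5 libraries, and 6 rose and 5 fell without sorted library 3. CAV1, the cholesterol-binding coat protein of caveolae, rose from 715 and 671 CPM in controls to 1493, 1565 and 1928 CPM in sorted libraries 1 to 3 (log2 fold change 1.26 ± 0.24, edgeR adjusted p = 0.0444). STARD5, a soluble lipid carrier, rose from 2.32 and 3.01 CPM to 7.19, 10.04 and 12.9 CPM (1.91 ± 0.36, edgeR adjusted p = 0.0447). OSBPL1A, an oxysterol-binding protein of late endosomes, fell from 38.2 and 35.2 CPM to 14.7, 16.7 and 19.7 CPM (-1.11 ± 0.21, edgeR adjusted p = 0.0438). The list held changes in both directions, and for all 3 genes the groups did not overlap. All 3 passed without sorted library 3. With any other library left out, in fits that called at most 19 genes of the whole table (edgeR adjusted p of the 3 genes 0.0808 to 0.435), the log2 fold change ran from 1.20 to 1.32 for CAV1, from 1.72 to 2.10 for STARD5 and from -1.18 to -1.02 for OSBPL1A. The calls of CAV1 and STARD5 were lost with library size alone as the scale (edgeR adjusted p = 0.0629 and 0.0751), where 0.693% of all tested genes were called higher.

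Of 18 genes of cholesterol esters, oxysterols and the LXR receptors, 11 were tested. None passed with 5 libraries (edgeR; 3 were higher at an unadjusted p under 0.05, and DESeq2 called 2 higher), and 4 rose and 1 fell without sorted library 3. CES1, a carboxylesterase, stood at 0.178 and 0.411 CPM in controls and at 1.95, 1.83 and 1.89 CPM in sorted libraries 1 to 3 (log2 fold change 2.66 ± 0.68, edgeR adjusted p = 0.0766). RXRB, a partner of LXR, stood at 8.99 and 8.22 CPM and at 13.5, 16.9 and 17.2 CPM (0.88 ± 0.24, edgeR adjusted p = 0.0868). Both rose without sorted library 3. SOAT2, the other cholesterol acyltransferase, was at 0 to 1.58 CPM in the 5 libraries.

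Of 15 tested SREBP-driven genes of fatty acid and lipid synthesis, none passed with 5 libraries (edgeR; 2 were higher and 5 lower at an unadjusted p under 0.05, and DESeq2 called 4 lower). Without sorted library 3, 2 rose and 8 fell. PNPLA3, a lipid droplet acylhydrolase and SREBP1 target, stood at 7.36 and 8.24 CPM in controls and 3.07, 1.91 and 1.21 CPM in sorted libraries 1 to 3 (log2 fold change -1.91 ± 0.43, edgeR adjusted p = 0.0611). FADS1, a fatty acid desaturase, stood at 102 and 120 CPM and at 49.3, 41.9 and 70.7 CPM (-1.04 ± 0.26, edgeR adjusted p = 0.0751). Both were among the 8 that fell without sorted library 3, while 2 others of the list rose there, as SREBF1 did. The relation of these genes to SREBF1 was not tested.

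Some of the 27 genes overlap others, and since the strand setting of the counting is not given in the sources used here, their reads may not be fully separated. ACAT2 overlaps TCP1, which had 15733 and 17752 counts in controls and 7307, 11686 and 7430 counts in sorted libraries 1 to 3, far above the 256 to 915 counts of ACAT2. It also overlaps SOD2, which had 16203 and 18878 counts in controls, 16824 and 19973 in sorted libraries 1 and 2 and 44952 in sorted library 3. TCP1 and ACAT2 had fewer counts in every sorted library than in the controls, and SOD2 had most in sorted library 3. The counts in this paragraph are not scaled for depth, which was lower in every sorted library than in the controls. By CPM ACAT2 in sorted library 3, at 27.2, lay above both controls. NPC1 overlaps RMC1, which had 1139 and 1237 counts in controls and 305 to 514 in sorted libraries, IDI1 overlaps WDR37, with 476 and 515 counts and 107 to 284, and MVK overlaps MMAB. The part of these neighbours in the values was not tested. FDPS, CYP51A1 and HSD17B7 have near-identical pseudogenes, between which reads could be split, so their values are the less certain for it.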

How the data were processed

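Total RNA of 5 U87 MG libraries was extracted with TRIzol and RNeasy Micro columns and sequenced from TruSeq Stranded Total RNA libraries, per the labels' protocols. The authors deposited 1 table with an estimated count (whole numbers), an FPKM and a TPM per gene and library, per the file headers. The deposited FPKM values were not used. The submitters' processing notes name StringTie and GRCh38 but not what each was used for. The aligner, annotation and strand setting are not given in those sources.

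The estimated counts went into edgeR 4.0.16 (R 4.3.3; filterByExpr, TMM, robust quasi-likelihood, group as the only term), with adjustment over all tested genes at 0.05. The SE is the size of the log2 fold change over the square root of F. Scripts were tested on simulated data. Alternatives used DESeq2 1.42.0, limma 3.58.1 (voom, or the deposited TPM as log2(TPM + 1) or log2(TPM + 0.1)), other filters and scales, and libraries left out in turn. DESeq2 and library size alone without sorted library 3 were added after seeing the data. No 2 libraries agreed within sampling noise (chi-square per degree of freedom at least 19.98). No label says whether replicates were separate cultures, so the p-values cover the spread between these libraries, which may be technical. Shared replicate numbers were not taken as pairs.

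The 27 members and the other lists were chosen with earlier results of these data known. All 27 were named, with every library's value for those past the threshold in either comparison (at most 12 by p). Members beyond those 12 that are also given by library were chosen after their values were seen. From each other list the genes past the threshold were named, or the 2 with the smallest p. Promoters and gene positions came from RefSeq tables of GRCh38.p14.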

Additional observations from a re-analysis of the deposited data

How the results depend on the processing

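Of 27 genes, 2 passed with 5 libraries (1 higher, 1 lower). None passed with library size alone, with log2(TPM + 0.1) or at a threshold of 0.01 (0 in each direction). Of all tested genes, 0.693% were higher and 1.93% lower with library size alone, and 0.131% and 0.467% on log2(TPM + 0.1). At 0.01, 9 genes of the whole table were higher and 5 lower, so these zeros are near the background. With no low-count filter 1 of the 27 passed (0 higher), where 1.93% of all genes were higher and 2.40% lower. DESeq2 gave 5, 1 higher and 4 lower (7.33% and 7.16% of all tested genes). With limma-voom 3 passed, 1 higher, SREBF1, and 2 lower (3.78% and 5.35% of all). On log2(TPM + 1) there were 4, 0 higher and 4 lower (0.543% and 9.49% of all genes). A replicate block on the shared numbers 2 and 3, which are not known to pair samples (correlation of deviations 0.05 and 0.0661), gave 1, with 0 higher, since SREBF1 (1.11) did not pass (edgeR adjusted p = 0.145). With 1 library left out the count ran from 0 to 15, from 0 to 3 higher and from 0 to 12 lower; the fits with 0 called 0, 0, 0 and 19 genes of the whole table, so those zeros match the background. Without sorted library 3, DESeq2 gave 13 (3 higher, 10 lower), where 12% of all tested genes were higher and 13.5% lower. Library size alone without sorted library 3 gave 14 (13 lower), where 9.05% of all tested genes were higher and 26.6% lower. The median log2 fold change moved to -0.802 with library size alone, -0.795 with that and without sorted library 3, -1.01 with log2(TPM + 1) and -1.36 with log2(TPM + 0.1); the medians of all genes were then -0.40, -0.26, -0.74 and -0.997, and the median of the 27 lay below that of all genes in every setting run. The cause of these shifts was not tested.

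Of the genes' own changes, 377 of the values over all settings kept direction and side, and 50 reversed, in 12 genes. On log2(TPM + 1) and log2(TPM + 0.1), HMGCS1 came to -0.42 and -0.51, MVK to -0.38 and -0.45, FDFT1 to -0.77 and -0.79, SQLE to -0.11 and -0.11, EBP to -0.39 and -0.39, DHCR7 to -0.23 and -0.28, SCAP to -0.41 and -0.48, INSIG1 to -0.37 and -0.38, and MYLIP to -0.34 and -0.84. With library size alone FDFT1 came to -0.23 and MYLIP to -0.20, and MYLIP to -0.19 with limma-voom. MSMO1, at -0.00 with 5 libraries, came to 0.0194 with RLE size factors, 0.0195 with a 1 CPM filter and 0.0247 with protein-coding genes alone, to 0.0023 with DESeq2 and to 0.12 with the replicate block. With 1 library left out, HMGCS1 ran from -0.0394 to 0.93, FDFT1 from -0.00927 to 0.31, TM7SF2 from -1.44 to 0.43, MSMO1 from -0.43 to 0.18, INSIG1 from -0.12 to 1.25, MYLIP from -0.71 to 0.72 and MVD from -0.59 to 0.32. Without sorted library 3, DESeq2 gave -0.048 for HMGCS1, -0.018 for FDFT1, 0.42 for TM7SF2, -0.12 for INSIG1 and -0.72 for MYLIP, and library size alone gave -0.28 for HMGCS1, -0.23 for MVK, -0.25 for FDFT1, 0.19 for TM7SF2, -0.0405 for DHCR7, -0.36 for INSIG1 and -0.95 for MYLIP. The median standard error over the 27 was 0.40 with 5 libraries and 0.15 without sorted library 3, and the fold changes moved as well.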
